A study of Arabidopsis thaliana with 9 samples.

Results

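The BGLU family is a family of glycoside hydrolases of Arabidopsis thaliana, many of which release glucose, or a related sugar, from small molecules. Its members were taken as every probe set with 1 gene whose symbol or synonym is BGLU followed by a number. This gave 22 probe sets, each for a different gene, among the 22746 of the array, 13513 of which have 1 named gene. The gene table used for names holds 47 BGLU genes. Of these, 2 share 1 probe set, which is no member and is described apart, and 23 have no listed probe set and were not analysed here.

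Whole roots were taken 7 days after germination, and each of 9 Affymetrix ATH1 arrays measured 1 sample. The SCL3 OE group was ga1-3 SCL3OE, in which the GRAS-family regulator SCL3 is overexpressed per the labels, the scl3-1 group was ga1-3 scl3-1, a loss-of-function mutant of SCL3, and the remaining group was ga1-3 alone, each with 3 biological replicates. All plants, the ga1-3 reference included, carried ga1-3, a mutation in a gene of gibberellin synthesis, so no group had normal gibberellin supply. The seedlings were kept at 22 °C in days of 16 h light and 8 h dark, on MS medium. The promoter that drives SCL3 in the SCL3 OE line and the number of lines are not given in the sources used here. Neither SCL3 nor GA1 has a named probe set, so no check of the labels by the manipulated genes was possible. The arrays carried root hair and cortex markers above the dim filter in all groups. LHCB4.1 and RCA, 2 of 5 listed leaf markers, were above it too, with summed signals of 1830 to 1871 in SCL3 OE, 1936 to 2210 in scl3-1 and 1764 to 1921 in ga1-3. The sum holds opposite changes: in SCL3 OE against ga1-3, LHCB4.1 fell (-0.51, SE 0.12, limma adjusted p = 0.00405) and RCA rose (0.32, SE 0.10, limma adjusted p = 0.0211), a call lost without ga1-3 replicate 1 (0.0542) or any 1 of the SCL3 OE arrays (0.0514 to 0.0629).

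Plants store many defence compounds, hormones and cell wall precursors as inactive glucosides. Glucosyltransferases (UGT proteins) attach the sugar, and BGLU enzymes take it off again when the free compound is needed, often after the cell is broken. In roots the best known member is PYK10, which fills spindle-shaped compartments of the endoplasmic reticulum called ER bodies and meets its substrates when tissue is damaged. Other members act on monolignol, flavonol, coumarin or hormone glucosides, and many have no assigned substrate.

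Of the 22 members, 8 passed the filter on dim probe sets, which asked for 3 or more arrays with a signal no lower than the array's 40th percentile (105.9 on average, 100.2 to 110.2 over the arrays). Only these were tested. They were PYK10 (BGLU23), BGLU15, BGLU16, BGLU25, BGLU42, BGLU44, BGLU45 and BGLU46. None of them passed through 1 group alone: 7 were above the filter level on all 9 arrays, and BGLU44 on all 3 scl3-1 arrays, all 3 ga1-3 arrays and 2 SCL3 OE arrays. In SCL3 OE roots 1 member was higher than in ga1-3 (PYK10), where 18.0% of all tested probe sets were, and 3 were lower (BGLU44, BGLU25 and BGLU16), where 25.9% were. These 4 of 8 compare with 43.8% of all 14117 tested probe sets called in the same comparison, so the family's count lies near the background. The SCL3 OE and ga1-3 arrays did not overlap for 4 of the 8 (PYK10, BGLU15, BGLU25 and BGLU44) and for 53.6% of all tested probe sets. The median log2 change of the 8 was -0.13, and of all tested probe sets -0.07. In scl3-1 roots none of the 8 was called against ga1-3, where 0.538% of all tested probe sets were. Every change below is a log2 difference with its standard error (SE) from limma's moderated test, with p-values adjusted over all tested probe sets, and levels are MAS5 signals. Signals of different probe sets are on scales of their own, so levels of different genes are not compared. Sums of marker signals, in which the brighter probe set weighs more, are compared between groups only. Ranks by signal serve only to form brightness classes.

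**Figure D1:**
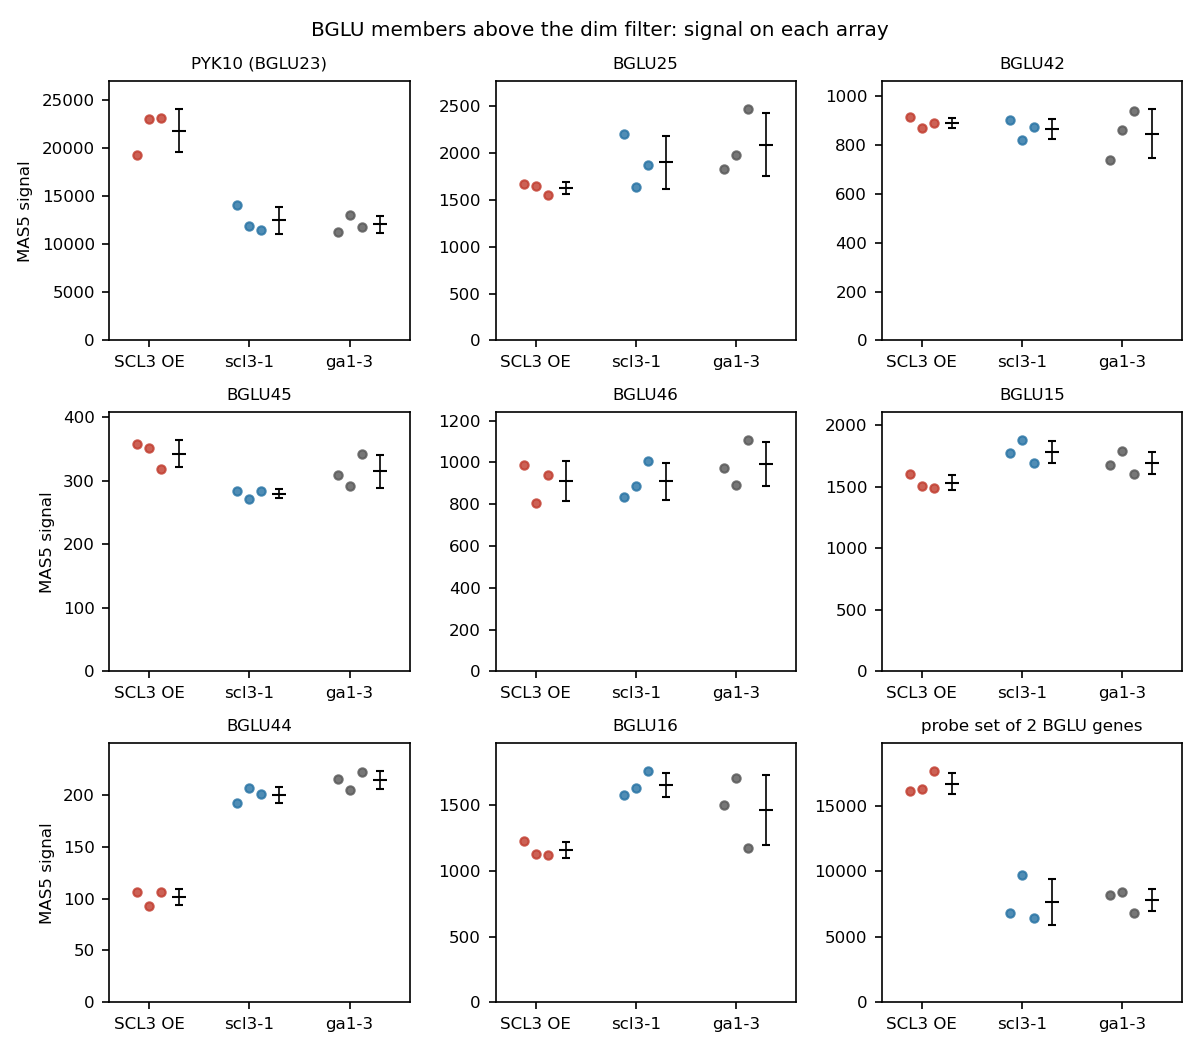
MAS5 signal (linear, y axis from 0) on each of 9 arrays for the 8 tested BGLU members and the probe set shared by 2 BGLU genes. Points are arrays in the order SCL3 OE, scl3-1 and ga1-3, and bars are the mean ± SD of 3 arrays. PYK10 and the shared probe set are higher on every SCL3 OE array, and BGLU44 is lower on every SCL3 OE array, than on the other 6.

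PYK10 (AT3G09260), the main ER body enzyme of roots, which acts on glucosides such as scopolin and indole glucosinolates, was the member that rose. Its signal was 19234, 23015 and 23144 on the SCL3 OE arrays, 14087, 11939 and 11473 on the scl3-1 arrays, and 11311, 13057 and 11824 on the ga1-3 arrays. All SCL3 OE arrays lay above all others, while the scl3-1 and ga1-3 arrays overlapped. The means were 21798 ± 2221 in SCL3 OE, 12500 ± 1394 in scl3-1 and 12064 ± 898 in ga1-3 (SD, n = 3 each). PYK10 rose 1.80-fold in SCL3 OE over ga1-3 (0.85, SE 0.10, limma adjusted p = 1.2e-05). Over scl3-1 it rose by 0.80 (SE 0.10, limma adjusted p = 2.24e-05). In scl3-1 against ga1-3 the difference was 0.05, with a 95% interval of -0.17 to 0.27.

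The size of the PYK10 rise depended on how bright probe sets were scaled. In SCL3 OE the brightest probe sets were higher as a class. Of the 100 brightest tested probe sets by mean signal over the 9 arrays, PYK10 among them, 93 rose and 0 fell against ga1-3, with a median change of 0.61. The change of PYK10 was number 14 in size among these 100. The 99th percentile of signal was 8374 to 9087 on the SCL3 OE arrays and 5846 to 6649 on the other 6. Quantile normalization, which gives all arrays the same distribution, left PYK10 at 0.21 over ga1-3 (limma adjusted p = 0.0182) and at 0.10 over scl3-1, which did not pass (limma adjusted p = 0.254). Cyclic loess normalization, an alternative added after this class shift was seen, gave 0.34 (limma adjusted p = 0.00172) over ga1-3 and 0.26 (limma adjusted p = 0.0108) over scl3-1.

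**Figure D2:**
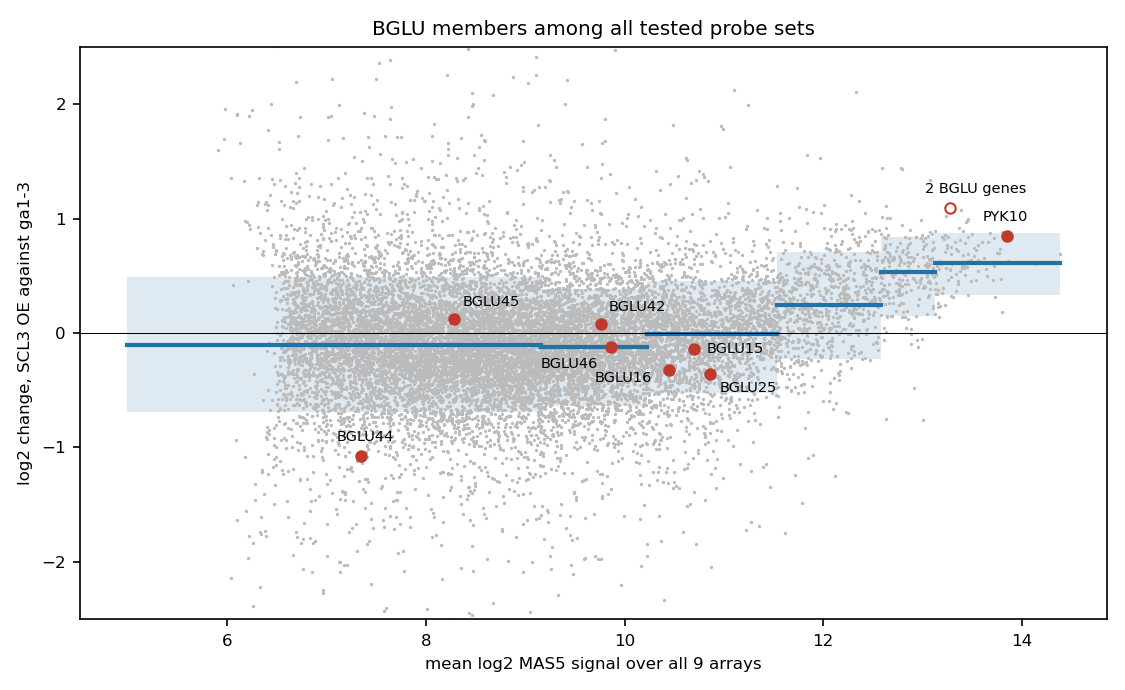
Log2 change in SCL3 OE against ga1-3 (y axis, drawn from -2.5 to 2.5, probe sets beyond are not shown) over the mean log2 signal of 9 arrays (x axis) for all tested probe sets, with the 8 tested BGLU members (filled) and the probe set of 2 BGLU genes (open) marked. The lines are medians of brightness classes and the band runs from the 10th to the 90th percentile. The class median climbs to 0.61 in the brightest 100, where PYK10 lies, and BGLU44 lies below the band at the dim end.

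The probe set shared by 2 BGLU genes had signals of 16133, 16285 and 17620 in SCL3 OE, 6784, 9699 and 6461 in scl3-1, and 8172, 8451 and 6849 in ga1-3. All SCL3 OE arrays lay above the other 6. It rose 2.14-fold over ga1-3 (SE 0.13 on the log2 scale, limma adjusted p = 1.03e-05) and by 1.15 (SE 0.13, limma adjusted p = 7.35e-06) over scl3-1. Its change over ga1-3 was the largest among the 100 brightest probe sets. After quantile normalization it was 0.46 (limma adjusted p = 0.0154), and after cyclic loess 0.69 (limma adjusted p = 0.000496). Which of the 2 genes carries the signal cannot be told apart on this probe set.

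BGLU25 (AT3G03640) belongs to the same sequence branch as PYK10, and no substrate is given for it here. Its signal was 1674, 1646 and 1553 in SCL3 OE, 2200, 1635 and 1874 in scl3-1, and 1831, 1977 and 2470 in ga1-3. The SCL3 OE arrays lay below all ga1-3 arrays and overlapped the scl3-1 arrays. BGLU25 fell against ga1-3 (-0.35, SE 0.12, limma adjusted p = 0.0285). It did not pass after quantile normalization (0.0656), with median-centred arrays (0.106), by eBayes without trend (0.0549), without ga1-3 replicate 3 (0.140) or without any 1 of the SCL3 OE arrays (0.0545 to 0.0937). Against scl3-1 the difference was -0.22 (limma adjusted p = 0.172). The other members of this branch with a probe set of their own are BGLU19, BGLU20 (also named ATA27, an anther gene) and BGLU24. They were below the filter level on all 9 arrays, with BGLU24 between 20.3 and 40.3. The bright probe set shared by 2 BGLU genes, described above, is not counted here, whichever branch its genes belong to.

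Genes that build ER bodies or encode proteins found with PYK10 rose with it in SCL3 OE. Of 15 listed genes 6 were measured and 5 tested, and all 5 rose against ga1-3, where 18.0% of all tested probe sets rose. Their median change was 0.73. The measured genes were NAI1, a bHLH transcription factor needed for ER bodies, NAI2, a protein needed to form them, and the jacalin-related lectins JAL22, JAL23, JAL33 and JAL34, relatives in the PYK10 complex. NAI2, JAL33 and JAL34 are among the brightest probe sets, of which a far larger share than 18.0% rose, as given below.

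NAI2 (AT3G15950) had signals of 9780, 9943 and 10632 in SCL3 OE, 6469, 5888 and 5621 in scl3-1, and 5280, 6997 and 6131 in ga1-3, without overlap between SCL3 OE and the rest. It rose by 0.73 over ga1-3 (SE 0.10, limma adjusted p = 4.58e-05). JAL33 rose by 0.83 (SE 0.09, limma adjusted p = 6.59e-06), with means of 12284 ± 934 in SCL3 OE, 6911 ± 611 in scl3-1 and 6913 ± 464 in ga1-3 (SD, n = 3 each). JAL34 rose by 0.77 (SE 0.11, limma adjusted p = 5.07e-05). These 3 genes were among the 300 brightest tested probe sets, and of those ranked 101 to 300, which include NAI2 and JAL33, 84.5% rose with a median of 0.53. JAL34 was among the 100 brightest, of which 93% rose with a median of 0.61. After quantile normalization NAI2 was at 0.22 (limma adjusted p = 0.0423), JAL33 at 0.26 (0.0251) and JAL34, which no longer passed, at 0.10 (0.340).

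NAI1 and JAL22 were not among the 300 brightest. NAI1 (AT2G22770) read 636, 656 and 637 in SCL3 OE, 404, 513 and 635 in scl3-1, and 607, 411 and 422 in ga1-3, so that 1 scl3-1 array and 1 ga1-3 array came near the SCL3 OE values. NAI1 rose against ga1-3 (0.45, SE 0.16, limma adjusted p = 0.0367), by 0.57 after quantile normalization, and passed in 14 of 21 alternatives, with adjusted p-values up to 0.147 when 1 array was left out. JAL22 rose by 0.32 (SE 0.08, limma adjusted p = 0.00666) and by 0.33 after quantile normalization. JAL23 read 23.7 to 26.7 in SCL3 OE, 18.6 to 22.4 in scl3-1 and 10.7 to 15.4 in ga1-3, all below the filter level, and was not tested. Against scl3-1, where 15.5% of all tested probe sets rose, NAI2, JAL33 and JAL34 rose in SCL3 OE, while NAI1 (0.34, limma adjusted p = 0.113) and JAL22 (0.21, limma adjusted p = 0.0636) did not pass. These 3 calls against scl3-1 were all lost after quantile normalization, with NAI2 at 0.20 (limma adjusted p = 0.0732), JAL33 at 0.22 (0.0656) and JAL34 at 0.17 (0.119). In scl3-1 against ga1-3 none of the 5 passed.

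**Figure D3:**
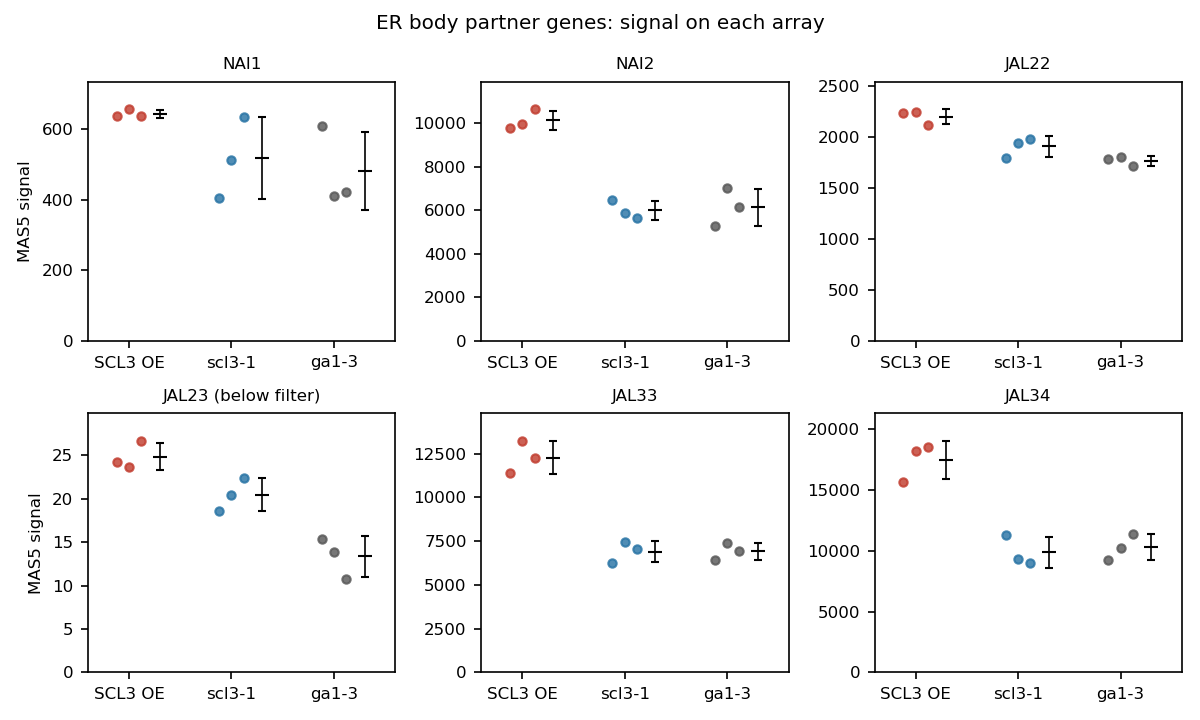
MAS5 signal (linear, y axis from 0) on each array for the 6 measured ER body partner genes, with points for arrays in SCL3 OE, scl3-1 and ga1-3 and bars for the mean ± SD of 3 arrays. All 5 tested genes are higher on every SCL3 OE array than on the other 6 arrays, NAI1 only just. SCL3 OE arrays did not overlap those of ga1-3 for 53.6%, and those of scl3-1 for 52.8%, of all tested probe sets. JAL23 stays below 30 on every array, under the filter level.

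Markers of root cell types also moved in SCL3 OE against ga1-3, where 18.0% of all tested probe sets rose and 25.9% fell. The root hair expansins EXPA7 and EXPA18, 2 of 4 listed root hair markers, summed to 1549 to 1630 in SCL3 OE, 2580 to 3039 in scl3-1 and 2427 to 2822 in ga1-3, and both fell against ga1-3. EXPA18 fell by 0.91 (SE 0.09), and EXPA7 by 0.37 (SE 0.12), passing in 16 of 21 alternatives and not after quantile normalization (limma adjusted p = 0.103). Both cortex markers measured (2 of 2) fell as well, with sums of 770 to 816 in SCL3 OE, 1708 to 2102 in scl3-1 and 1590 to 1677 in ga1-3. The cortex marker AT1G09750 was at -1.14 (SE 0.10) and AT1G62500 at -0.63 (SE 0.20). The call of the cortex marker AT1G62500 was lost without ga1-3 replicate 1 (0.0802) or SCL3 OE replicate 2 (0.0745). No listed marker of stele, xylem or root cap was on a named probe set. The endodermal receptor kinase gene GSO1, 1 of 4 listed endodermis markers, did not pass (0.31, limma adjusted p = 0.0958), but did after quantile normalization (0.44, limma adjusted p = 0.032). In whole roots, fewer cells of a type and less RNA per cell cannot be told apart, and the part of cell composition in the BGLU values was not tested.

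BGLU44 (AT3G18080), an enzyme with beta-mannosidase activity, had the largest fall of the 8 tested members. It read 106, 92.9 and 107 in SCL3 OE, 192, 207 and 200 in scl3-1, and 215, 205 and 222 in ga1-3. The SCL3 OE arrays lay below all others, and those of scl3-1 and ga1-3 overlapped. The means were 102 ± 7.79 in SCL3 OE, 200 ± 7.5 in scl3-1 and 214 ± 8.78 in ga1-3 (SD, n = 3 each). BGLU44 fell 2.10-fold against ga1-3 (-1.07, SE 0.14, limma adjusted p = 1.72e-05) and by 0.97 against scl3-1 (SE 0.14, limma adjusted p = 4.54e-05). The SCL3 OE values lie at the filter level, so the size of the fall is less certain than its sign: with an offset of 50 before log2 it was -0.80. It passed in all 20 alternatives against ga1-3 that kept the probe set, with -1.03 after quantile normalization. The neighbouring gene BGLU43 was below the filter on all 9 arrays (3.64 to 23.5).

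BGLU16 (AT3G60130), for which no role is given here, read 1224, 1125 and 1117 in SCL3 OE, 1576, 1626 and 1754 in scl3-1, and 1495, 1704 and 1174 in ga1-3. The lowest ga1-3 array fell inside the SCL3 OE range, while all scl3-1 arrays lay above it. BGLU16 fell against scl3-1 by 0.52 (SE 0.12, limma adjusted p = 0.003). Against ga1-3 it fell by 0.32 (SE 0.12, limma adjusted p = 0.0399), but this passed in only 10 of 21 alternatives and failed, for example, without ga1-3 replicate 1 (0.0848), without ga1-3 replicate 2 (0.200), without any 1 of the SCL3 OE arrays (0.0545 to 0.113), with no dim filter (0.0571) and after quantile normalization (0.121).

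**Figure D4:**
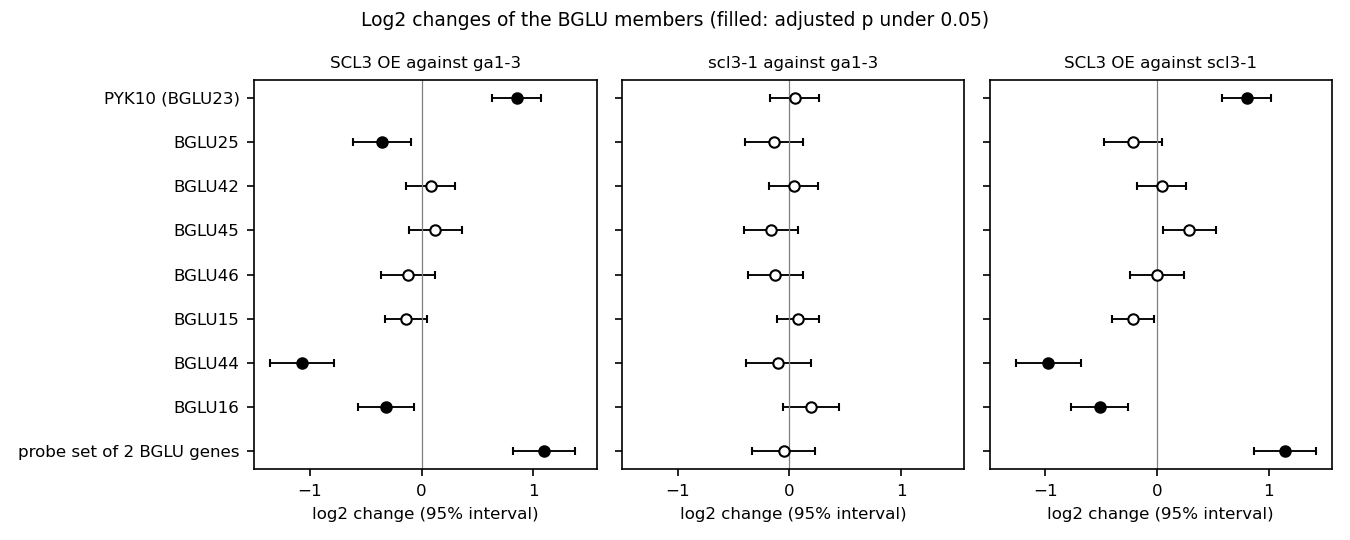
Log2 change with its 95% interval (x axis) of the 8 tested BGLU members and the probe set of 2 BGLU genes in SCL3 OE against ga1-3, scl3-1 against ga1-3 and SCL3 OE against scl3-1, from limma, with filled points for an adjusted p under 0.05. PYK10 lies at 0.85 and BGLU44 at -1.07 in SCL3 OE against ga1-3, and no member is filled in scl3-1 against ga1-3.

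BGLU45 (AT1G61810) and BGLU46 (AT1G61820), neighbouring genes whose enzymes hydrolyse monolignol glucosides, the stored form of lignin precursors, did not pass in any comparison of the main fit. BGLU45 read 358, 351 and 318 in SCL3 OE, 284, 272 and 284 in scl3-1, and 309, 293 and 342 in ga1-3. All SCL3 OE arrays lay above the scl3-1 arrays, with a difference of 0.29 (SE 0.11, limma adjusted p = 0.0537). After quantile normalization it was 0.44 (limma adjusted p = 0.0075), and it passed in 8 of 21 alternatives. Against ga1-3 the difference of BGLU45 in SCL3 OE was 0.12 (95% interval -0.12 to 0.36). For BGLU46 it was -0.12 (95% interval -0.37 to 0.12), with means of 910 ± 94.4 in SCL3 OE, 909 ± 87.8 in scl3-1 and 992 ± 107 in ga1-3 (SD, n = 3 each).

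On the synthesis side of this pathway, 4 of 20 listed genes were measured. UGT72E1, a monolignol glucosyltransferase, rose in SCL3 OE against ga1-3 (0.57, SE 0.11, limma adjusted p = 0.000933), where 18.0% of all tested probe sets rose. The related UGT72E2 (0.04) and UGT72E3 (0.26) and HCT (0.11), a hydroxycinnamoyl transferase of monolignol synthesis, did not pass. In scl3-1 against ga1-3, UGT72E1 was at 0.50 (limma adjusted p = 0.0715), with all scl3-1 arrays above the ga1-3 arrays.

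BGLU15 (AT2G44450) hydrolyses flavonol bisglycosides. Its signal was 1608, 1508 and 1489 in SCL3 OE, 1776, 1880 and 1696 in scl3-1, and 1679, 1791 and 1609 in ga1-3. Every SCL3 OE array was below every array of the other groups, but by little: -0.14 against ga1-3 (95% interval -0.33 to 0.05, limma adjusted p = 0.211) and -0.22 against scl3-1 (limma adjusted p = 0.0639). The fall of BGLU15 against scl3-1 passed in 3 of 21 alternatives. UGT89C1 and UGT78D2, genes for enzymes that glycosylate flavonols, rose in SCL3 OE against ga1-3, where 18.0% of all tested probe sets rose. UGT89C1, a flavonol 7-O-rhamnosyltransferase, rose by 1.39 over ga1-3 (SE 0.13, limma adjusted p = 6.4e-07), with means of 2985 ± 102 in SCL3 OE, 1661 ± 249 in scl3-1 and 1146 ± 183 in ga1-3 (SD, n = 3 each). UGT78D2, a flavonol 3-O-glucosyltransferase, rose by 0.91 (SE 0.11, limma adjusted p = 1.42e-05). UGT78D1, a flavonol 3-O-rhamnosyltransferase, read 144, 137 and 106 in SCL3 OE and 29.7 to 53.7 in ga1-3. It passed the filter through the SCL3 OE arrays, the group where it was high, so its rise is given as values only. These were 3 of 10 listed flavonol genes.

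UGT78D2 was the only one of the 17 tested companion genes that also passed in scl3-1 against ga1-3, where 0.538% of all tested probe sets did. It was at 0.59 (SE 0.11, limma adjusted p = 0.0296), passing in 13 of 21 alternatives. It read 1530, 1765 and 1806 in SCL3 OE, 1503, 1447 and 1142 in scl3-1, and 934, 843 and 926 in ga1-3. Both SCL3 lines lay above ga1-3 on every array, so the mutant and the overexpressor are on the same side of ga1-3 here. Of all tested probe sets, 14.1% had scl3-1 and ga1-3 arrays that did not overlap, and 53.6% had such SCL3 OE and ga1-3 arrays. UGT89C1 in scl3-1 was at 0.54 (limma adjusted p = 0.0796).

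BGLU42 (AT5G36890) removes glucose from scopolin and other coumarins before roots secrete them, an answer to iron shortage and to beneficial microbes. It read 913, 870 and 889 in SCL3 OE, 903, 819 and 874 in scl3-1, and 740, 860 and 938 in ga1-3, with all groups overlapping. The difference in SCL3 OE was 0.08 against ga1-3 (95% interval -0.14 to 0.30) and 0.04 against scl3-1 (95% interval -0.18 to 0.26). Of 6 listed genes of coumarin synthesis and export, 3 were measured. Of all tested probe sets, 18.0% rose in SCL3 OE against ga1-3 and 15.5% against scl3-1. The feruloyl-CoA hydroxylase gene AT3G13610, the entry step, rose in SCL3 OE over ga1-3 (0.72, SE 0.13, limma adjusted p = 0.000362). Its probe set was among those ranked 301 to 1000 by brightness, of which 50.4% rose with a median of 0.25. After quantile normalization AT3G13610 was at 0.44 over ga1-3 (limma adjusted p = 0.0138). Over scl3-1 it rose by 0.36 (SE 0.13, limma adjusted p = 0.0337), but passed in only 13 of 21 alternatives, and was at 0.03 after quantile normalization (0.879) and 0.12 after cyclic loess (0.459). Leaving out scl3-1 replicate 1 (0.131) or 3 (0.0847), or SCL3 OE replicate 2 (0.142) or 3 (0.0794), also ended the call. The coumarin synthase gene COSY did not pass against ga1-3 (0.22) but rose over scl3-1 (0.41, SE 0.12, limma adjusted p = 0.0135), though not without scl3-1 replicate 1 (0.0611) or SCL3 OE replicate 2 (0.0522). The scopoletin hydroxylase gene S8H read 230, 292 and 255 in SCL3 OE, against 19.3, 21.9 and 12.4 in scl3-1 and 12.6, 9.18 and 31.1 in ga1-3, and passed the filter through SCL3 OE alone.

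A pair of glucosyltransferase genes of other BGLU pathways fell in SCL3 OE against ga1-3, where 25.9% of all tested probe sets fell. UGT74B1, which glucosylates the precursors of glucosinolates, was the 1 measured gene of 13 in the indole glucosinolate list, whose products PYK10 can cleave. It read 1353, 1307 and 1165 in SCL3 OE, 2319, 2489 and 2301 in scl3-1, and 2173, 2019 and 2052 in ga1-3, and fell by 0.71 against ga1-3 (SE 0.09, limma adjusted p = 1.7e-05) and by 0.90 against scl3-1. UGT71C5, which glucosylates abscisic acid, fell by 0.73 (SE 0.11, limma adjusted p = 6.09e-05), with means of 480 ± 21 in SCL3 OE, 718 ± 48.5 in scl3-1 and 797 ± 80.8 in ga1-3 (SD, n = 3 each). UGT71B6, of the same function, was below the filter level on all arrays. These were 2 measured of 11 listed genes of abscisic acid synthesis and turnover. The lists for glucosinolate breakdown, sulfur deficiency and galactolipids had no gene on a named probe set.

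In scl3-1 roots against ga1-3 roots, the 8 changes ran from -0.17 (BGLU45) to 0.20 (BGLU16), with a median of -0.03 and 0.01 over all tested probe sets. limma called 0 of 8, where 0.538% of all tested probe sets were called, and 0 of the 8 had an unadjusted p under 0.05. BGLU45, 1 of the 8, had all scl3-1 arrays below all ga1-3 arrays, and 14.1% of all tested probe sets had arrays that did not overlap in this comparison. With no dim filter 0 of the 22 members were called, where only 36 of all 22746 probe sets were. A difference in PYK10 within the interval given above (-0.17 to 0.27) cannot be resolved with 3 arrays a group. SCL3 OE against scl3-1 called 3 of 8 members, PYK10 up and BGLU44 and BGLU16 down, where 39.2% of all tested probe sets were called (15.5% up and 23.6% down). The arrays of these groups did not overlap for 5 of the 8, the 3 called and BGLU15 and BGLU45, and for 52.8% of all tested probe sets. The 2 comparisons with SCL3 OE share its arrays, and both comparisons against ga1-3 share the ga1-3 arrays.

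The other 14 members were too dim to test. On 13 of them no array reached the filter level, and the highest signal was 63.1, in BGLU47 (AT4G21760). BGLU47, which lies in the sequence branch of BGLU45 and BGLU46, read 28.3, 63.1 and 32.5 in SCL3 OE, 60, 55.5 and 52.9 in scl3-1, and 24, 42.2 and 43.9 in ga1-3. BGLU40 (AT1G26560) was the member just under the filter, with 107, 116 and 84.5 in SCL3 OE, 92.7, 93.7 and 93.1 in scl3-1, and 90.1, 69.5 and 75.8 in ga1-3. Just above it was BGLU44. BGLU28, which breaks down glucosinolates under sulfur shortage, stayed between 4.34 and 42.9, and BGLU33, which frees abscisic acid from its glucose ester in the vacuole, between 1.51 and 27.2. BGLU27, BGLU29, BGLU31, BGLU32, BGLU36, BGLU41 and BGLU43 were likewise at or under 45.3. A signal under the filter gives no order between groups here, and does not show that a gene is silent.

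**Figure D5:**
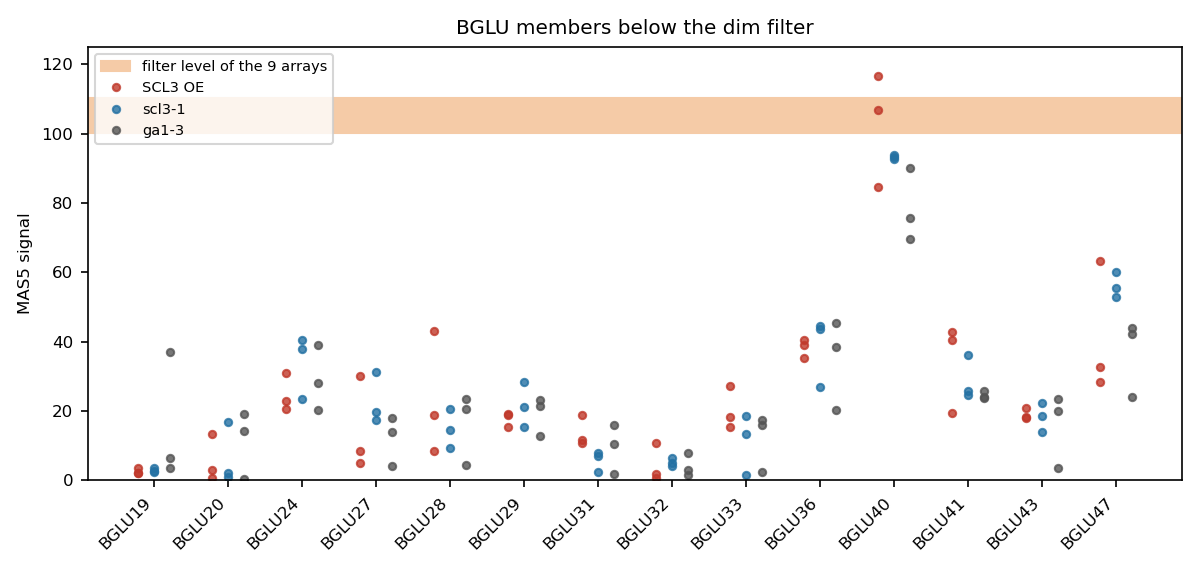
MAS5 signal (linear, y axis from 0) on each array for the 14 BGLU members below the dim filter, with points for SCL3 OE, scl3-1 and ga1-3 and a band for the filter level of the 9 arrays (100.2 to 110.2). BGLU40 has 2 SCL3 OE arrays in or above the band, its other arrays read 69.5 to 93.7, and the points of the other 13 members lie at 63.1 or less.

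Neighbouring BGLU genes were on the same side of the filter in some groups and not in others. With neighbours taken as BGLU genes within 2 genes of each other, 11 members form 5 groups, and 3 of these groups have members on both sides of the filter. BGLU15 passed while its neighbours BGLU28 and BGLU29 did not, BGLU16 passed while BGLU27 did not, and BGLU44 passed while BGLU43 did not. BGLU45 and BGLU46 both passed the filter, and BGLU31 and BGLU32 both stayed below.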

How the data were processed

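RNA of whole roots (300 ng a sample) was biotin-labelled with a 3' IVT kit, per the labels. The deposited values are MAS5 signal intensities on a linear scale that the authors made with Affymetrix Expression Console 1.1, per the submitters' processing notes. No detection calls were used. The 2% trimmed mean was about 496 to 497 on all 9 arrays. Signals were taken to log2 with this scaling kept. Probe sets with 3 or more arrays no lower than the array's 40th percentile were fitted (14117 of 22746) in R 4.3.3 with limma 3.58.1, as group means over 9 arrays, with trended eBayes (6 residual and 9.37 prior degrees of freedom) and Benjamini-Hochberg adjustment. A call is an adjusted p under 0.05, two-sided. The fit was tested on simulated data. Names came from a probe table (503 probe sets with several genes, 8730 not named here) and a TAIR10.1 gene table, used for names and gene order. The number of arrays limits the precision. The members and lists were chosen with earlier results of these data known. Arrays are shown for each called member and those next to the filter, and every measured gene of a companion list is named. No sequence is printed, as no reference sequence was used here.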

Additional observations from a re-analysis of the deposited data

How the results depend on the processing

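Against ga1-3, 4 BGLU members were called in SCL3 OE, and 2 with quantile normalization, median-centred arrays or eBayes without trend. Leaving out 1 array gave 2 to 4, with 2 when any SCL3 OE array was left out. Against scl3-1, 3 were called in SCL3 OE, and 5 with array weights, with only the 6 arrays compared or with cyclic loess (chosen after seeing the data), and leaving out 1 array gave 3 to 4. In scl3-1 against ga1-3 the count was 0 under every alternative run. With the replicate number as a block the counts were 4, 0 and 3. For pairing, the group mean of each probe set was subtracted and the remaining deviations were correlated between arrays of different groups. Deviations of arrays with the same number correlated between -0.19 and 0.18. In 7 of 18 cases an array's deviations correlated best with those of its own number, so the numbers were not taken as pairs. No member changed sign while called. Over all probe sets, 76 were called in scl3-1 against ga1-3, but 36 with no dim filter, 20 by eBayes without trend, 123 with array weights, 30 with only the 6 arrays, and 3 (without scl3-1 replicate 2) to 148 (without ga1-3 replicate 1) when 1 array was left out. The share of calls that were higher was 41.0% in SCL3 OE against ga1-3 and 53.4% with median-centred arrays. Against scl3-1 it was 39.6%, and 59.0% with median-centred arrays, which moved the median of all probe sets from -0.07 to 0.06. The causes were not tested. Signal near the filter limits BGLU44 and BGLU40, and 14 members have no test.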

Other observations

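BGLU19 (AT3G21370), a member of the PYK10 branch, read 37 on the array of ga1-3 replicate 1, and 1.94 to 6.35 on the other 8 arrays, all below the filter level.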
